A study of Mus musculus with 8 samples.

Results

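Complexes II to V of the mitochondrial respiratory chain, together with cytochrome c and the assembly factors that carry a Cox symbol, were examined in mouse hearts after a 2-day fast. Members were the genes Sdha, Sdhb, Sdhc, Sdhd, Cyc1 and Cycs and every gene whose symbol begins with Uqcr, with Atp5 or with Cox and a digit. They were reached through the accession that each array probe carries, and the rule used no measured value. This gave 58 genes on 71 probes, of 18217 named genes on the array. The 15 further RefSeq symbols that match the rule are pseudogenes, and no probe was assigned to them. Of the 58 genes, 56 passed the filter, which asks for a signal well above background in 4 or more of the 8 hearts, and were tested. They comprised 4 of complex II, 10 of complex III with cytochrome c, 16 subunits of complex IV, 9 assembly factors of complex IV and 17 of complex V. The other two, Cox8c (above background on 0 arrays) and Cox7b2 (above background in 1 fasted and 1 satiated heart), are isoforms known from testis and were not tested.

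The fasted group held 4 male C57BL/6J mice aged 9 weeks that had water but no food for 2 days, and the satiated group held 4 male C57BL/6J mice of the same age with no treatment. CE-2 pellets were the standard diet of the mice, and the labels name no transgene or other agent. Total RNA of each heart was labelled with Cy3 and hybridised to an Agilent mouse array in 1 colour. The labels number the hearts as replicates 1 to 4 of each group and say nothing further on the animals, so what the p-values measure is how far these 8 samples spread.

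In the inner mitochondrial membrane, complex II passes electrons from succinate to ubiquinone, complex III passes them from ubiquinol to cytochrome c, and complex IV passes them from cytochrome c to oxygen. Complexes III and IV pump protons, and complex V, the ATP synthase, uses the returning protons to make ATP. Cardiomyocytes are packed with mitochondria and make most of their ATP in this way, from fatty acids above all. Several subunits of complex IV exist as a form found in most tissues and a form of heart and skeletal muscle, while the assembly factors insert haem, copper and subunits and are not part of the finished enzyme.

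Values are given as scaled log2 intensity, which is the log2 of the background-subtracted spot intensity minus the 75th percentile of that array. A change is the mean of the fasted hearts minus the mean of the satiated hearts on that scale, with its standard error (SE) from limma. A gene was said to rise or fall where the Benjamini-Hochberg adjusted p over all 20203 genes and unnamed probes was under 0.05. Slide 1 carried replicates 1 and 2 of both groups and slide 2 carried replicates 3 and 4, so each slide gives a change of its own, and a second fit held the slide as a block. Intensities of different probes are not comparable, so levels are compared between hearts and never between genes. In RNA from whole hearts, fewer cells of a type and less RNA per cell cannot be told apart.

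Of the 8 arrays, those of slide 1 had 66.7% to 68.9% of probes well above background and those of slide 2 had 54.4% to 55.6%. All 10 cardiomyocyte markers listed (among them Myh6, Tnnt2 and Ryr2) were well above background in every heart. Their summed scaled intensity on the linear scale was 2820, 2803, 3978 and 3426 in fasted replicates 1 to 4, against 3482, 3066, 3715 and 3987 in satiated replicates 1 to 4. One of these markers fell, Actc1, the cardiac actin (-1.64 ± 0.13). Fasted replicate 3 thus had the highest sum of the fasted hearts for these markers. It was the highest fasted heart for each of them except Actc1, where it was the lowest, and Pln. It was also the highest of the fasted hearts for 46 of the 56 members. The part of the markers in the results was not tested, and the counts and medians without this heart are given beside the results.

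Satiated replicate 1 stood apart in some of the 8 tested markers of fast skeletal muscle. Pvalb, a calcium-binding protein of fast fibres, had a scaled log2 intensity between -5.03 and -4.76 in the fasted hearts, against 1.65 in satiated replicate 1 and between -4.57 and -4.43 in the other satiated hearts. The fast myosin light chain Mylpf averaged -2.07 ± 0.12 (SD, n = 4) in the fasted hearts, against 3.31 in satiated replicate 1 and between -2.34 and -2.17 in the other satiated hearts. Tnnt3 and Tnni2, both fast troponins, had 3.50 and 6.14 in satiated replicate 1, above every other heart. These 4 genes were named after their values were seen. Of them, Pvalb was above background in only 2 fasted and 2 satiated hearts, and Tnnt3 in 4 fasted and 3 satiated hearts. Of the other tested markers, Myh2 was also highest in this heart (-0.50), but it was above background in only 1 fasted and 3 satiated hearts. Atp2a1 (3.20), Acta1 (4.93) and Myh4 (7.64) were each exceeded by at least 1 other heart. Satiated replicate 1 was the highest of the 8 hearts for 9 of the 56 members, and fasted replicate 3 for 29. The part of fast muscle transcripts in the values of the members was not tested, and results are also given without satiated replicate 1.

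Most members did not pass the test, and the few that fell were 2 assembly factors and 1 subunit. Of the 56 members, 3 fell and 0 rose by limma (0 higher at an unadjusted p under 0.05), at a background of 10.3% of all genes and probes falling, 9.82% rising and 20.2% changing either way. The 3 were Cox15 and Cox11, assembly factors of complex IV, and Sdhd, an anchor subunit of complex II. At an unadjusted p under 0.05, 7 members were lower and 0 higher, at a background of 17.3% lower, 16.5% higher and 33.8% either way. The share of members that fell was below the background share.

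The median change of the members was -0.09, against -0.00 over all genes and probes, and 42 members had a negative and 14 a positive value. The median was -0.18 on slide 1 and -0.02 on slide 2. Taken against the satiated mean of each gene, the median member lay at -0.21, -0.21, 0.15 and -0.12 in fasted replicates 1 to 4, against -0.05, -0.10, 0.05 and 0.07 in satiated replicates 1 to 4. For the median member, fasted replicate 3 was thus the highest of all 8 hearts and the other fasted hearts were the lowest. On the same measure, all genes and probes lay at 0.03, 0.07, -0.03 and -0.09 in fasted replicates 1 to 4. In satiated replicates 1 to 4 they lay at 0.04, 0.03, -0.03 and -0.03.

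Without fasted replicate 3 the median was -0.16 and 5 members fell by limma (Cox15, Cox11, Cox20, Cyc1 and Atp5g1), at a background of 9.53% falling, 8.73% rising and 18.3% changing either way. Without satiated replicate 1 the median was -0.09, and 2 members fell (Cox15 and Cox11) and 0 rose by limma, with 6 lower and 0 higher at an unadjusted p under 0.05. The background in that fit was 7.30% falling, 7.30% rising and 14.6% changing either way. In the fit with a slide block 11 members fell and 1 rose, at a background of 18.4% falling, 17.1% rising and 35.5% either way. The 11 were Sdhd, Cyc1, Cycs, Uqcrc1, Cox15, Cox11, Cox20, Cox14, Cox19, Atp5g1 and Atp5d, and the member that rose was Cox18. With the replicate number as a block 8 of these 11 fell (all but Uqcrc1, Cox14 and Cox19) and 0 members rose, although 2 were higher at an unadjusted p under 0.05, at a background of 16.7% falling, 15.4% rising and 32.1% either way. The share of members that fell under the slide block, 19.6%, lay near the background share. On slide 1 alone 10 members were lower and 0 higher at an unadjusted p under 0.05, at a background of 17.1% lower, 15.3% higher and 32.5% either way.

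**Figure D1:**
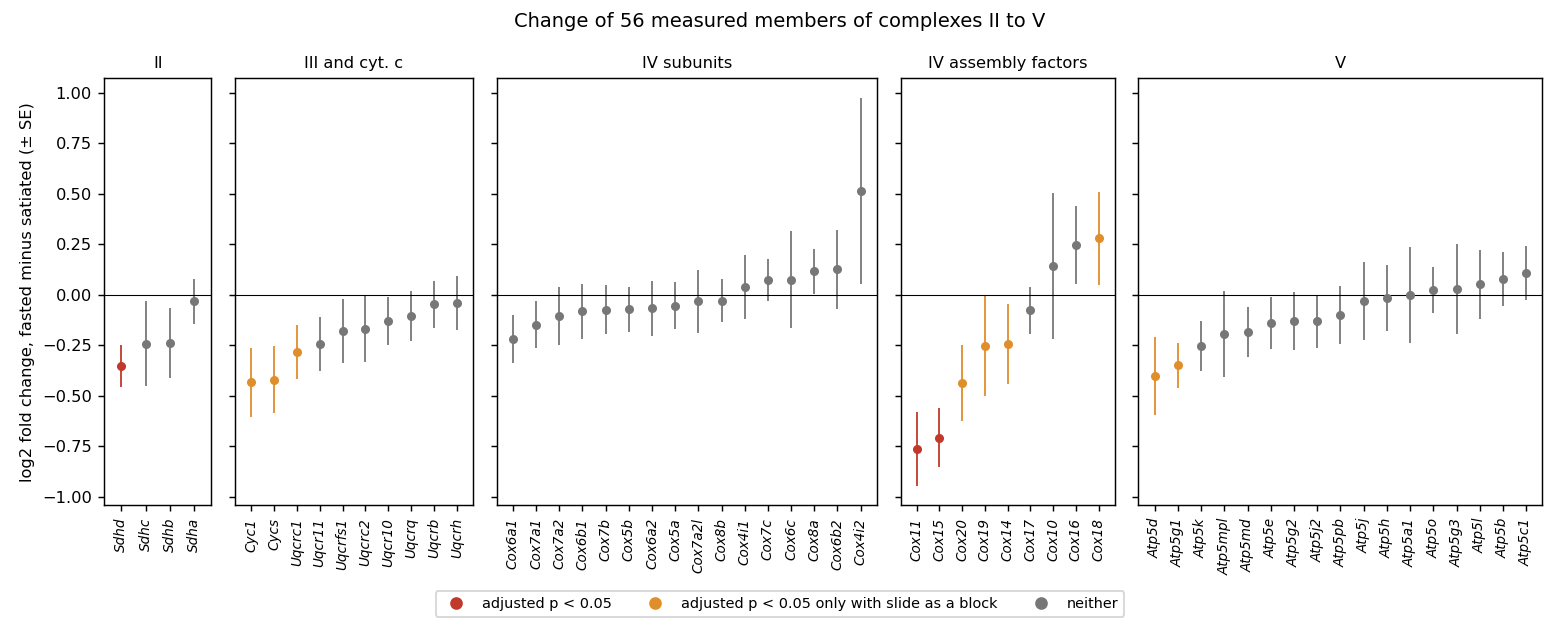
The log2 change (fasted minus satiated) of the 56 tested members with its SE, ordered by size within each complex, 4 hearts a group. Red points passed an adjusted p of 0.05 (Cox11, Cox15 and Sdhd), orange points passed it with the slide as a block alone, and grey points passed neither.

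Complex II, succinate dehydrogenase, has a flavoprotein and an iron-sulphur subunit (Sdha, Sdhb) held on the membrane by 2 anchors (Sdhc, Sdhd), and it also serves the citric acid cycle. All 4 of its subunits had negative values, of which 1, Sdhd, fell, at the background of 10.3% falling. Their median was -0.24, with -0.37 without fasted replicate 3 and -0.29 without satiated replicate 1. Scaled log2 intensity of Sdhd was 6.35, 6.26, 6.37 and 6.36 in fasted replicates 1 to 4, against 6.55, 6.71, 6.77 and 6.73 in satiated replicates 1 to 4. Every fasted heart lay below every satiated heart. The change was -0.35 ± 0.10 by limma (adjusted p = 0.0462, or 0.0114 in the slide-block fit), with -0.32 on slide 1 and -0.39 on slide 2. The call was narrow: without any 1 of the 8 hearts the adjusted p lay between 0.0511 and 0.124.

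The catalytic subunit Sdha had a change of -0.03 ± 0.11 (95% confidence interval -0.29 to 0.23). Its 2 probes gave -0.03 and 0.02, and slide 2 alone gave 0.05. Sdhb had -0.24 ± 0.17, with -0.42 on slide 1 and -0.06 on slide 2, and Sdhc had -0.24 ± 0.21, with -0.34 and -0.14 on the same slides. Scaled log2 intensity of Sdhb was 6.88, 6.84, 7.54 and 7.23 in fasted replicates 1 to 4, against 7.27, 7.27, 7.47 and 7.42 in satiated replicates 1 to 4. For Sdhb the fasted hearts of slide 1 were the lowest of the 8 and fasted replicate 3 was the highest, so the groups overlapped.

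In complex III and cytochrome c, all 10 members had negative values (median -0.17, with -0.25 on slide 1 and -0.14 on slide 2, -0.27 without fasted replicate 3 and -0.19 without satiated replicate 1), and by limma 0 of them passed the test, with 2 at an unadjusted p under 0.05. The background at that unadjusted p was 17.3% lower. With the slide as a block 3 fell, at a background of 18.4% falling. Without fasted replicate 3 it was 1, Cyc1, at a background of 9.53% falling. Cyc1, the cytochrome subunit that hands electrons to cytochrome c, had scaled log2 intensities of 6.74, 6.69, 7.32 and 7.07 in fasted replicates 1 to 4, against 7.28, 7.24, 7.46 and 7.57 in satiated replicates 1 to 4. Each fasted heart was lower than both satiated hearts of its own slide, but fasted replicate 3 exceeded the satiated hearts of slide 1. The change of Cyc1 was -0.43 ± 0.17 (limma, adjusted p = 0.111, 0.0116 in the slide-block fit and 0.0397 without fasted replicate 3).

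Uqcrc1, a core subunit, had 7.16, 7.26, 7.61 and 7.42 scaled log2 intensity in fasted replicates 1 to 4, against 7.55, 7.54, 7.73 and 7.77 in satiated replicates 1 to 4. Within each slide both fasted hearts lay below both satiated hearts, and the change was -0.28 ± 0.14 (adjusted p = 0.184 in limma, and 0.0312 in the slide-block fit). Uqcr11 (-0.24 ± 0.13), the Rieske iron-sulphur protein Uqcrfs1 (-0.18 ± 0.16) and Uqcr10 (-0.13 ± 0.12) passed neither fit. The value nearest to 0 was that of the hinge protein Uqcrh, -0.04 ± 0.13 (95% confidence interval -0.35 to 0.27), which was 0.05 on slide 2 and 0.02 without fasted replicate 1.

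Cycs, the mobile cytochrome c between complexes III and IV, was measured by 3 probes that did not give the same size of change. The brightest probe, A_51_P163587, had scaled log2 intensities of 6.98, 7.05, 7.53 and 7.32 in fasted replicates 1 to 4, against 7.52, 7.43, 7.77 and 7.84 in satiated replicates 1 to 4. Its change was -0.42 ± 0.17 in a limma fit that kept every probe on its own (adjusted p = 0.111), and the groups overlapped through fasted replicate 3. Probe A_51_P261671 had 4.57, 4.62, 5.17 and 4.95 in the fasted hearts, against 5.54, 5.52, 5.78 and 5.79 in the satiated hearts.

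On probe A_51_P261671 every fasted heart was below every satiated heart, and the change was -0.83 ± 0.17 (adjusted p = 0.0104 in limma). Probe A_52_P82247 gave the same picture, with -0.82 ± 0.19 (adjusted p = 0.0189 in limma) and no overlap of the groups. All 3 probes carry the same accession. Cycs has processed pseudogenes, and to which transcripts each probe binds was not tested. The fall of Cycs thus depends on the probe, and with the slide as a block all 3 probes passed (adjusted p = 0.00778, 0.000916 and 0.00171). Of the other 10 members with several kept probes, the probes of 1 gene differed in change by at most 0.15, the most in Atp5g2.

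**Figure D2:**
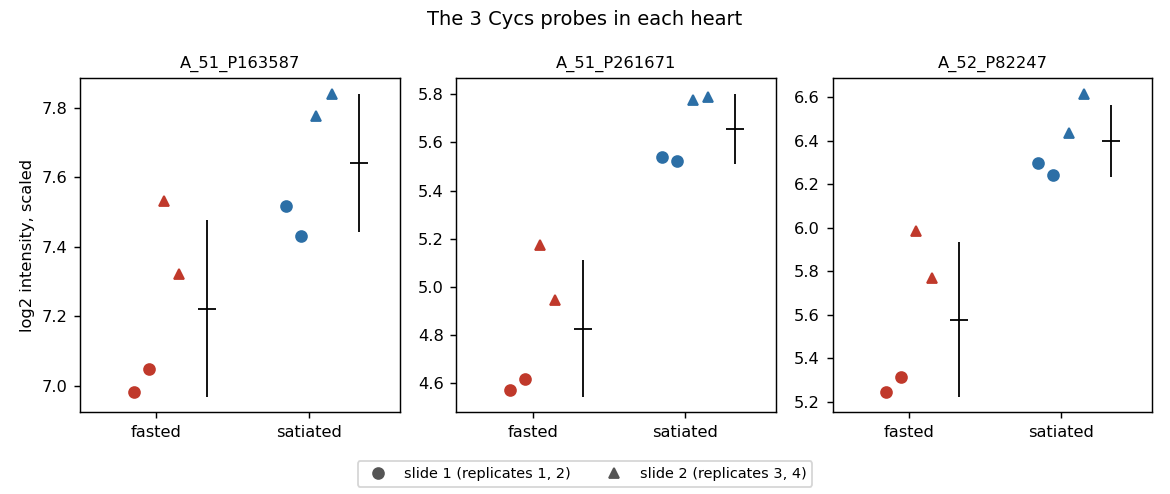
Scaled log2 intensity of the 3 Cycs probes in each heart (red fasted, blue satiated, circles slide 1, triangles slide 2), with the mean ± SD of 4 hearts as a bar. The groups overlap on the brightest probe, on the left, and are apart on the other two.

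Complex IV, cytochrome c oxidase, splits into subunits of the enzyme and factors that build it. Among its 16 tested subunits 0 changed by limma, with 0 at an unadjusted p under 0.05, and 0 passed in the slide-block fit, where 1 had an unadjusted p under 0.05. The 16 had a median of -0.04 (slide 1 gave -0.13, slide 2 0.05; it was -0.10 without fasted replicate 3 and -0.03 without satiated replicate 1), with 10 negative and 6 positive values. Apart from Cox4i2, the values ran between -0.22 and 0.13. The lowest was Cox6a1, with 7.29, 7.12, 7.39 and 7.42 scaled log2 intensity in fasted replicates 1 to 4, against 7.44, 7.43, 7.55 and 7.67 in satiated replicates 1 to 4. Its fasted hearts all lay below its satiated hearts by a small margin, and the change of -0.22 ± 0.12 did not pass (adjusted p = 0.245 in limma, and 0.0662 in the slide-block fit).

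For the complex IV forms of heart and skeletal muscle, the 3 differences in change from the form found elsewhere lay between -0.15 and 0.15, and none had an adjusted p under 0.05. Cox6a2 had -0.07 ± 0.14 and its counterpart Cox6a1 had the -0.22 given above. Cox7a1 had -0.15 ± 0.12 and Cox7a2 had -0.10 ± 0.14. Cox8b had -0.03 ± 0.11 and Cox8a had 0.12 ± 0.11. The difference between the 2 forms was -0.15 for Cox8b minus Cox8a (1.41 ± 0.07 in fasted hearts, against 1.56 ± 0.11 in satiated hearts, as mean ± SD of the within-array difference of the 2 probes, n = 4 each), which was the pair with the smallest p. In a two-sided exact permutation test over the hearts that p was 0.0857, and 0.4 after Benjamini-Hochberg adjustment over the 7 pairs compared, where the smallest p the design allows is 0.0286. A single pair at that smallest p would have an adjusted p of 0.2, so that 1 pair on its own could not pass. Within each slide both fasted hearts lay below both satiated hearts for Cox8b minus Cox8a. With hearts exchanged within their slide alone, its exact permutation p was 0.0556, and 0.0972 after adjustment. That p is the smallest the exchange within slides allows, so no pair could pass 0.05 there.

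The difference was 0.15 for Cox6a2 minus Cox6a1 (exact permutation p = 0.343) and -0.04 for Cox7a1 minus Cox7a2 (exact permutation p = 0.629). For Cox7a1 and Cox7a2 the sign turned with quantile normalization (0.05) and without fasted replicate 4 (0.01). Cox4i1, the form of subunit IV found in most tissues, had 8.52, 8.54, 9.07 and 8.75 scaled log2 intensity in fasted replicates 1 to 4, against 8.65, 8.51, 8.72 and 8.86 in satiated replicates 1 to 4. The groups overlapped, with fasted replicate 3 the highest heart, and Cox4i1 had a change of 0.04 ± 0.16 (95% confidence interval -0.32 to 0.40). Cox4i2, known from lung, was above background in 2 fasted and 2 satiated hearts, and its change of 0.52 ± 0.46 had the widest interval of all members (-0.54 to 1.57). Cox4i2 minus Cox4i1 gave a difference in change of 0.48 (exact permutation p = 0.4), which includes 4 hearts where Cox4i2 was not above background, ran between 0.25 and 0.92 without 1 heart and was 0.12 with normexp background correction. Cox6b2, known from testis, was above background in every heart and had 0.13 ± 0.20, while Cox6b1 had -0.08 ± 0.14. Cox7a2l, a factor that joins complexes III and IV into supercomplexes, had -0.03 ± 0.15, and Cox7c had 0.07 ± 0.11.

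Among the 9 assembly factors of complex IV in the list, 2 fell and 0 rose, at the background of 10.3% falling. The 9 had a median of -0.24, with -0.24 on slide 1 and -0.21 on slide 2, and this ran between -0.18 and -0.13 without 1 heart, with -0.15 without fasted replicate 3 and -0.13 without satiated replicate 1. With the slide as a block 5 fell and 1 rose, at the background of 18.4% and 17.1%. Cox15, which with Cox10 makes haem A for the catalytic core, had the smallest p of all 56 members. Its scaled log2 intensity was 0.34, 0.66, 0.05 and 0.45 in fasted replicates 1 to 4, against 1.12, 1.13, 0.99 and 1.10 in satiated replicates 1 to 4. Every fasted heart was below every satiated heart, and fasted replicate 3 was the lowest of all 8. The change was -0.71 ± 0.15, a fasted to satiated ratio of 0.613 (adjusted p = 0.0126 in limma, and 0.00530 in the slide-block fit). It was -0.62 on slide 1 and -0.79 on slide 2, and it passed without any 1 of the 8 hearts (highest adjusted p = 0.0400).

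Cox11, which delivers copper to a catalytic site of the enzyme, had scaled log2 intensities of 2.23, 2.28, 2.26 and 2.79 in fasted replicates 1 to 4, against 2.93, 2.93, 3.36 and 3.38 in satiated replicates 1 to 4. The groups did not overlap, with fasted replicate 4 nearest to the satiated hearts. The change was -0.76 ± 0.18, a ratio of 0.590 (adjusted p = 0.0221 in limma, and 0.00427 in the slide-block fit), with -0.68 on slide 1 and -0.85 on slide 2. Without fasted replicate 1 or 2 or satiated replicate 3 or 4 the call was lost, with adjusted p up to 0.0651.

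Cox20, which helps mature a core subunit, had 3.96, 3.93, 4.67 and 4.24 scaled log2 intensity in fasted replicates 1 to 4, against 4.51, 4.46, 4.85 and 4.73 in satiated replicates 1 to 4. Within each slide both fasted hearts of Cox20 lay below both satiated hearts, and fasted replicate 3 lay above the satiated hearts of slide 1. Its change was -0.44 ± 0.19 (limma, adjusted p = 0.144, 0.0224 in the slide-block fit and 0.0324 without fasted replicate 3). Cox14 had 5.62, 5.52, 6.05 and 6.08 in the fasted hearts, against 5.86, 5.76, 6.34 and 6.27 in the satiated hearts, with slide 2 the higher slide in both groups. Cox14 (-0.24 ± 0.20) and Cox19, a protein of the copper pathway (-0.25 ± 0.25), also passed with the slide as a block alone (adjusted p = 0.0371 and 0.0495 in limma).

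Of the other assembly factors, Cox18, which inserts a core subunit into the membrane, was the one member that rose with the slide as a block (0.28 ± 0.23, adjusted p = 0.442 without the block and 0.0480 with it, in limma). It had 1.80, 1.63, 2.44 and 2.20 in the fasted hearts, against 1.42, 1.504, 2.06 and 1.97 in the satiated hearts, so that both fasted hearts were the higher ones on each slide. Its 2 probes gave 0.26 and 0.28. With every probe kept on its own and the slide as a block, their adjusted p in limma was 0.0524 and 0.0473. Only 1 of the 2 probes thus passed. Cox16 had 0.25 ± 0.19, with 0.24 on slide 1 and 0.26 on slide 2. The copper chaperone Cox17 had -0.08 ± 0.12, and Cox10, the partner of Cox15 in haem A synthesis, had 0.14 ± 0.36. Values of both signs thus occur within the set, and Cox10 and Cox15 had values of opposite sign, a difference that was not tested.

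**Figure D3:**
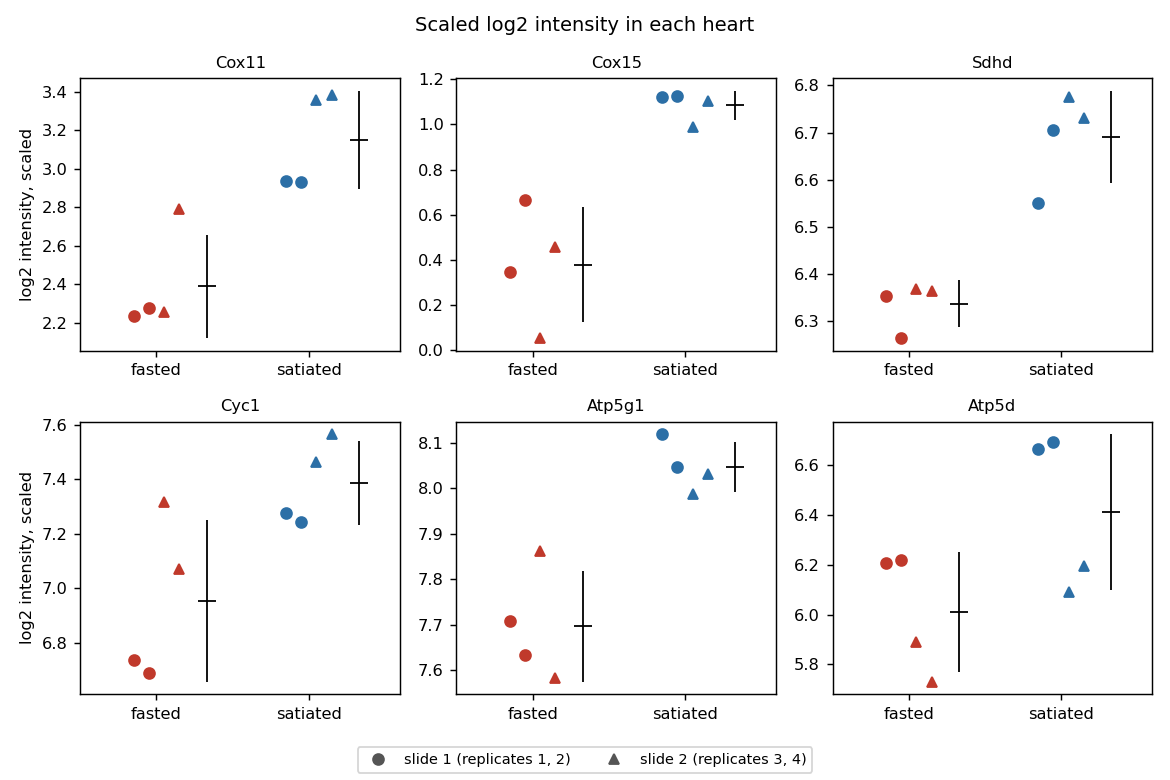
Scaled log2 intensity of Cox11, Cox15, Sdhd, Cyc1, Atp5g1 and Atp5d in each heart (red fasted, blue satiated, circles slide 1, triangles slide 2), with the mean ± SD of 4 hearts as a bar. The groups are apart for Cox11, Cox15, Sdhd and Atp5g1, and overlap for Cyc1 and Atp5d, where the 2 slides differ in level.

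Complex V has a catalytic head that makes ATP, a ring of c subunits that turns in the membrane, and a stalk that joins them. Of its 17 members 0 passed by limma, with 1 at an unadjusted p under 0.05, and 2 fell in the slide-block fit, at the background of 18.4%. The 17 had a median of -0.10, with -0.16 on slide 1 and -0.01 on slide 2, and this ran between -0.16 without fasted replicate 3 and -0.04, with -0.09 without satiated replicate 1. Atp5g1, 1 of 3 genes for the same c subunit, came closest. It had 7.71, 7.63, 7.86 and 7.58 scaled log2 intensity in fasted replicates 1 to 4, against 8.12, 8.05, 7.99 and 8.03 in satiated replicates 1 to 4. No fasted heart reached a satiated heart, and fasted replicate 3 was the nearest to them. The change was -0.35 ± 0.11 (limma, adjusted p = 0.0561, 0.0224 in the slide-block fit and 0.0290 without fasted replicate 3), with -0.41 on slide 1 and -0.29 on slide 2.

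The other two c subunit genes differ from Atp5g1 in their targeting peptide and not in the mature protein. Atp5g2 had -0.13 ± 0.14 and Atp5g3 had 0.03 ± 0.22. The difference in change was -0.22 for Atp5g1 minus Atp5g2 (two-sided exact permutation p = 0.114), -0.38 for Atp5g1 minus Atp5g3 (exact permutation p = 0.171) and -0.16 for Atp5g2 minus Atp5g3 (exact permutation p = 0.514). After adjustment over the 7 pairs the smallest of these was 0.4. Atp5g1 minus Atp5g2 was 0.38, 0.35, 0.55 and 0.54 in fasted replicates 1 to 4, against 0.50, 0.58, 0.85 and 0.77 in satiated replicates 1 to 4, as the within-array difference of the 2 probes on the log2 scale. Atp5g1 minus Atp5g3 was 0.10, -0.10, -0.60 and -0.66 in the fasted hearts, against 0.31, 0.30, -0.16 and -0.19 in the satiated hearts. Within each slide both fasted hearts lay below both satiated hearts for these 2 pairs, while the slides differed in level. With hearts exchanged within their slide alone, the adjusted p of each of the 3 pairs was 0.0972, where the smallest exact permutation p is 0.0556.

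Atp5d, the delta subunit of the stalk, had 6.21, 6.22, 5.89 and 5.73 scaled log2 intensity in fasted replicates 1 to 4, against 6.67, 6.69, 6.09 and 6.20 in satiated replicates 1 to 4. The hearts of slide 2 were lower than those of slide 1 in both groups, and within each slide both fasted hearts lay below both satiated hearts. The change was -0.40 ± 0.19 (limma, adjusted p = 0.184, and 0.00856 in the slide-block fit), with -0.47 on slide 1 and -0.33 on slide 2. Atp5k had -0.25 ± 0.13, Atp5md had -0.18 ± 0.12, Atp5e had -0.14 ± 0.13 and Atp5j2 had -0.13 ± 0.13, and none of the 4 passed either fit.

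Values near 0 were found in the catalytic head. Its alpha and beta subunits Atp5a1 and Atp5b had -0.00 ± 0.24 and 0.08 ± 0.13, and Atp5a1 had 7.66, 7.68, 8.48 and 8.26 scaled log2 intensity in fasted replicates 1 to 4, against 7.76, 7.77, 8.23 and 8.32 in satiated replicates 1 to 4. Slide 2 was the higher slide for Atp5a1 in both groups. The gamma subunit Atp5c1, which forms the central shaft, had the highest value of the complex, 0.11 ± 0.13 (95% confidence interval -0.20 to 0.42). Atp5b was measured by 3 probes, with values of 0.00 to 0.08. Of the 17 members, 9 had negative values on both slides and 1 had positive values on both.

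Over all members, 5 had groups that did not overlap, each with the fasted hearts below: Sdhd, Cox6a1, Cox15, Cox11 and Atp5g1. The background was 14.3% of genes and probes with the fasted hearts below, 13.3% with them above and 27.6% in either direction. In 30 members the value was negative on both slides and in 9 it was positive on both.

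**Figure D4:**
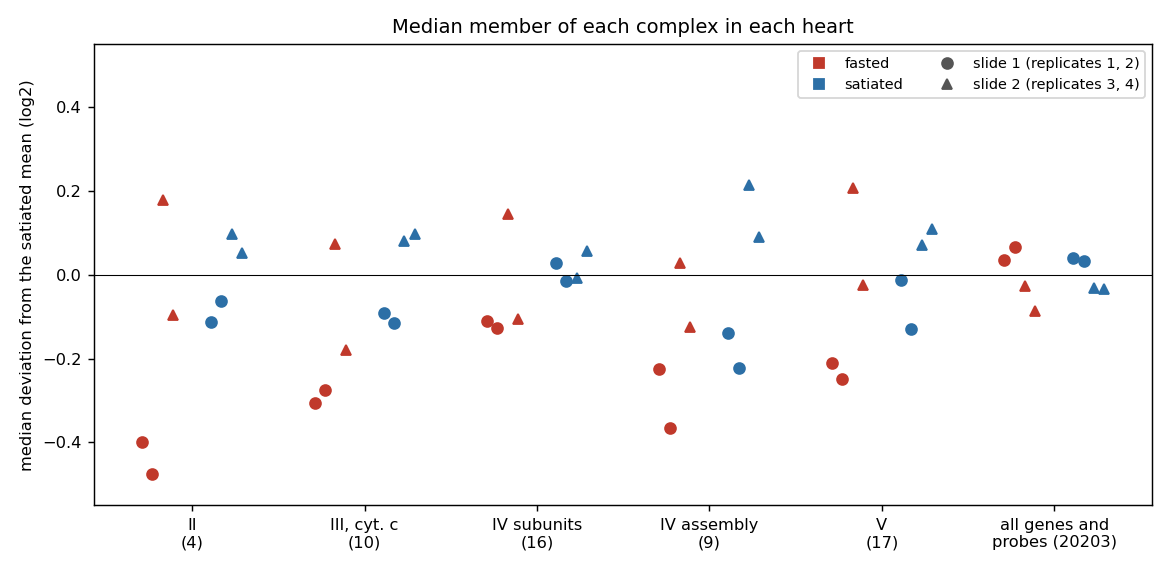
The median over the members of each set of the deviation from the satiated mean (log2), 1 point a heart (red fasted, blue satiated, circles slide 1, triangles slide 2), with the number of genes under each set. Fasted replicate 3 is the highest fasted heart in all 5 sets of members. The median of all genes and probes lies between -0.09 (fasted replicate 4) and 0.07 (fasted replicate 2).

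The 3 genes that fell are shown with the 250 bases before their RefSeq start site (GRCm38.p6, 5′ to 3′ on the strand of the gene), as the sequence context of the members that passed the test. Capitals mark matches to the binding motifs of factors known to act on respiratory genes. Motifs searched on both strands were GCGCA, any base and then GCGC for NRF1, TNAAGGTCA for the oestrogen-related receptors (ERR), ACCGGAAG for GABP and AANATGGCG for YY1.
Cox15, chr19:43753001-43753250, minus strand: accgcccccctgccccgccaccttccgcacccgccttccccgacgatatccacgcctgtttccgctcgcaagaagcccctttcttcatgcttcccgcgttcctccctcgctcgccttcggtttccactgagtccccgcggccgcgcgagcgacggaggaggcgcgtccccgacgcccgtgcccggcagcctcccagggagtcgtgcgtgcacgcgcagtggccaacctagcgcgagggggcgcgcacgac
Cox11, chr11:90637934-90638183, plus strand: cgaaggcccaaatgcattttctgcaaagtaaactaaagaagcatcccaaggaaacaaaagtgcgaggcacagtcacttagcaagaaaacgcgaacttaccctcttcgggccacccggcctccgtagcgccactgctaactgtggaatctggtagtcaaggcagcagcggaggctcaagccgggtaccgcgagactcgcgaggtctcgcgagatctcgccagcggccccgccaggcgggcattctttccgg
Sdhd, chr9:50603850-50604099, minus strand: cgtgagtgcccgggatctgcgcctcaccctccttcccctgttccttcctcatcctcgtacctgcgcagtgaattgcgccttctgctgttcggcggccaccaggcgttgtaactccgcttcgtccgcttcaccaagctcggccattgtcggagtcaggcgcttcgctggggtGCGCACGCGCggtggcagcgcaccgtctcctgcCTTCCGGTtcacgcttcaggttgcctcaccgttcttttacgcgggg
The Sdhd window holds an NRF1 motif that begins 79 bases before the start and, without overlap, a GABP motif on the other strand that begins 46 bases before it. None of the 4 motifs is in these windows of Cox15 and Cox11. Promoters were found for 43 of the 56 members, and the NRF1 motif stood in 7 of them (16.3%, against 4.23% of 27025 genes with a promoter in the table). The 7 were Sdha, Sdhd, Cox6a1, Atp5c1, Atp5g2, Atp5h and Atp5k, of which Sdhd fell. The GABP motif stood in 2 members, Sdhd and Atp5e (4.65%, against 1.95%), the ERR motif in Atp5g3 (2.33%, against 1.30%) and the YY1 motif in Atp5j (2.33%, against 1.29%).

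Many assembly factors that do not carry a Cox symbol fell. Of 33 listed factors of complexes II to V, 27 were tested, and 14 fell and 0 rose by limma (median -0.45, with -0.47 on slide 1 and -0.46 on slide 2), at the background of 10.3% falling. Beside them, 1 of the 47 subunits and cytochrome c among the members fell, with a median of -0.08. Taken with the 9 assembly factors in the list of members, 16 of 36 assembly factors fell. The slide-block fit gave 18 of the 27 that fell and 1 that rose, at a background of 18.4% falling and 17.1% rising. Without fasted replicate 3 the number that fell was 12, at a background of 9.53% falling. Groups did not overlap in 18 of the 27, each with the fasted hearts below, at the background of 14.3%.

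Sdhaf4, which helps the flavoprotein of complex II join its partner, had 2.55, 2.83, 2.19 and 2.75 scaled log2 intensity in fasted replicates 1 to 4, against 4.08, 4.05, 4.13 and 4.12 in satiated replicates 1 to 4. The highest fasted heart lay below the lowest satiated heart by more than the whole range of the fasted hearts. The change was -1.52 ± 0.15, a ratio of 0.350 (adjusted p = 0.000937 in limma).

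Bcs1l, the translocase that places the Rieske protein in complex III, had 1.33, 1.51, 1.31 and 1.25 in the fasted hearts, against 2.42, 2.48, 2.23 and 2.35 in the satiated hearts. Its change was -1.02 ± 0.11 (limma, adjusted p = 0.00122), almost the same on slide 1 (-1.03) and slide 2 (-1.01). Cmc2, a small protein tied to complex IV assembly, had 2.37, 2.53, 2.03 and 2.42 in the fasted hearts, against 3.41, 3.47, 3.43 and 3.57 in the satiated hearts. Its change was -1.13 ± 0.13 (limma, adjusted p = 0.00146). For these 3 genes fasted replicate 3 was not the highest fasted heart, whereas it was for the 46 members counted above.

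The other 11 that fell were Uqcc1 and Ttc19 of complex III, Taco1, Coa3, Coa5, Coa6, Sco1 and Higd1a of complex IV, the haem lyase Hccs, Atpaf1 of complex V and Sdhaf3 of complex II, named after their values were seen. Their changes ran between -0.98 and -0.34. The 3 genes of the list with the highest values were Cmc1 (0.35 ± 0.17, the one that passed upward in the slide-block fit, adjusted p = 0.0211 in limma), Surf1 (0.15 ± 0.12) and Uqcc3 (0.08 ± 0.11).

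**Figure D5:**
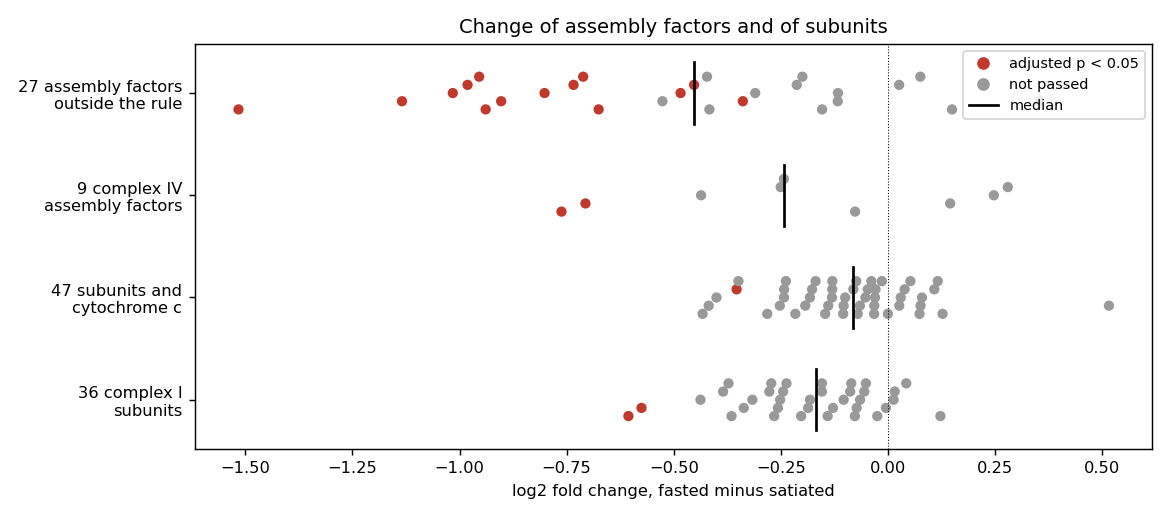
The log2 change (fasted minus satiated) of each gene in 4 sets, with red points for an adjusted p under 0.05, grey points for the rest and a black line at the median. The median is -0.45 for the 27 assembly factors outside the list of members, -0.24 for the 9 within it, -0.08 for the 47 subunits and cytochrome c and -0.17 for the 36 subunits of complex I.

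In the 36 nuclear subunits of complex I, the entry point for electrons from NADH, 2 fell and 0 rose by limma (5.56%, at the background of 10.3% falling), with a median of -0.17. In the slide-block fit 9 fell (25.0%, at the background of 18.4%). The 2 were Ndufc2 (-0.61 ± 0.11) and Ndufa11 (-0.58 ± 0.12). Of 12 tested proteins tied to these complexes, such as the adenine nucleotide carriers and the electron transfer flavoprotein, 0 passed by limma, with 0 at an unadjusted p under 0.05. The members Atp5md and Atp5mpl are in that list as well, and its smallest p belonged to Etfa, a subunit of the electron transfer flavoprotein (0.33 ± 0.15, adjusted p = 0.158). The mitochondrially encoded subunits were not analysed here.

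Of 17 tested regulators of respiratory gene transcription 2 fell and 0 rose by limma (11.8% falling, at the background of 10.3%). With the slide as a block 6 fell and 2 rose, at the background of 18.4% and 17.1%. The 2 that rose, named after their values were seen, were Nrf1 and Tfb2m. Nrf1 had 0.68 ± 0.34 (limma, adjusted p = 0.206, and 0.00395 in the slide-block fit). Tfb2m had 0.39 ± 0.12 (limma, adjusted p = 0.0509, and 0.0233 in the slide-block fit). Perm1, a muscle regulator of oxidative genes, had 3.61, 3.39, 2.83 and 3.65 scaled log2 intensity in fasted replicates 1 to 4, against 4.33, 4.33, 4.37 and 4.31 in satiated replicates 1 to 4. All fasted hearts were lower, replicate 3 the most (-0.97 ± 0.19, adjusted p = 0.00947 in limma). Tfam, which packs and transcribes mitochondrial DNA, had a change of -0.38 ± 0.11 (adjusted p = 0.0380 in limma), a call that was lost without any 1 heart but fasted replicate 4 (adjusted p = 0.0482 to 0.112).

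Markers of other cells give the setting of these values. Brown adipocytes, which are also rich in respiratory chain transcripts, had 5 of 6 listed markers tested. Their summed scaled intensity was 80.7, 61.6, 102 and 63.2 in fasted replicates 1 to 4. In satiated replicates 1 to 4 it was 45.3, 60.2, 63.5 and 91.9. Ucp1 was above background in every heart. Its scaled log2 intensity was 2.54, 0.72, 4.60 and 2.06 in the fasted hearts, against 1.11, 3.01, 3.14 and 4.26 in the satiated hearts. Both the sum and Ucp1 were highest in fasted replicate 3. The 6 tested adipocyte markers summed to 46.6 to 84.1 in fasted hearts and 36.4 to 119 in satiated hearts, with Car3 the one that fell (-3.67 ± 0.48). The 8 tested markers of fast skeletal muscle summed to 182 to 283 in fasted hearts and 193 to 335 in satiated hearts. The fast muscle sum was highest in satiated replicate 1 (335, against 193, 239 and 269 in satiated replicates 2 to 4). It is carried mostly by Myh4, whose probe was bright in every heart. The sum thus shows only in part how satiated replicate 1 stood apart in Pvalb, Mylpf, Tnnt3 and Tnni2. The median change of the adipocyte markers was 0.37 on slide 1 and -1.94 on slide 2. Of the 6 markers, 3 were negative on both slides and 1, Cidec, was positive on both. Adipoq, the adipocyte hormone adiponectin, changed sign between the slides (0.95 and -1.01), as did Cfd (1.04 and -0.61). The part of these lists in the values of the members was not tested.

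Of 6 fibroblast markers 4 fell (Lum, Col3a1, Col1a1 and Col1a2) and 1 rose (Dcn). Of 4 atrial markers 1 fell (Myl7), of 4 smooth muscle markers 1 fell (Acta2) and of 6 leukocyte markers 1 rose (S100a8), all by limma. The background in that fit was 10.3% of all genes and probes falling and 9.82% rising. The calls of Myl7, Acta2, S100a8 and Dcn were lost without some single hearts (adjusted p up to 0.0661, 0.0810, 0.0776 and 0.0505 in limma). The smallest adjusted p in the lists with no call was 0.0669 for brown adipocyte, 0.0679 for endothelial, 0.209 for fast skeletal muscle and 0.436 for erythroid markers.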

How the data were processed

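Per the labels, Cy3-labelled RNA of 4 fasted and 4 satiated hearts was hybridised to 1-colour arrays. The deposited scanner tables hold linear intensity values from Agilent Feature Extraction, background-subtracted on each array and not normalized between arrays, per the file headers (version 10.5.1.1 on slide 1 and 10.7.3.1 on slide 2, while the submitters' processing notes name 9.1). Slide, scan and software version cannot be told apart from one another. A deposited table of linear ratios served as an alternative. The sources used here do not say how it was made, and 99.7% of its probes matched the scanner values within 0.01 log2 after a constant per probe and a factor per array.

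Of 45018 spots, 1639 controls and outlier spots were left out. The log2 intensity was taken and averaged over the spots of a probe. The 75th percentile of each array was then subtracted. Probes were kept that stood well above background in 4 or more of the 8 arrays (26480 of 41174). Accessions named 26690 probes through RefSeq (GRCm38.p6), and a gene was represented by its brightest kept probe. The annotation of slide 1 was used. That of slide 2 lists another accession for 1782 probes, none of them a member's. No spot was saturated.

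The comparison used limma 3.58.1 (lmFit, eBayes) in R 4.3.3, two-sided, over 20203 genes and unnamed probes, and isoform pairs by exact permutation over 70 splits. The scripts were tested on simulated data. Alternatives were a slide block, a replicate block, each slide alone, other background correction, scaling, filters and probe rules, the deposited ratios, array weights, moderated variance with a trend, and leaving out each heart. Normexp used the median foreground signal, since no mean signal was used here. Same-numbered hearts deviated together (r = 0.331 to 0.493 in all 4 pairs), as did hearts of the same slide with other numbers (0.291 to 0.522), while hearts on different slides gave -0.531 to -0.284, so the replicate block carries the slide within it.

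The members and all lists were chosen with earlier results of these data known. Genes named singly were the complex II subunits, Cyc1, Cycs, the isoforms, each member called with or without the slide block, the 6 smallest p and the largest change each way in each complex, genes not above background, and up to 3 called genes of each other list. Cox10, Cox17, Atp5a1 and Atp5b were named for their roles, and the other called genes of the assembly and fibroblast lists in full, after their values were seen.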

Additional observations from a re-analysis of the deposited data

Results flagged for a closer look

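In 5 of 78 groups of 4 hearts (39 named members, 2 groups each), 1 heart stood apart from the other three by more than Dixon's 95% critical value, and chance alone gives about 1 such group in 20. All 5 lay in the fasted group. Scaled log2 intensity was 7.04 for Atp5g2 and 6.00 for Atp5k in fasted replicate 4, which was below the other fasted hearts for both. Cox11 stood at 2.79 in the same heart, above the other fasted hearts. Cox7a1 stood at 9.102 in fasted replicate 3, above the other fasted hearts, and Sdhd at 6.26 in fasted replicate 2, below them.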

How the results depend on the processing

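In the comparison of fasted with satiated hearts, 3 members fell and 0 rose, at 10.3% of all genes and probes falling. The number that fell was 11 in the slide-block fit (18.4% of all falling), 8 with the replicate number as a block (16.7%), 8 with array weights (13.7%) and 7 with quantile normalization (11.2%). It was 1 without a filter on dim probes (3.57%, more features tested), 1 with the deposited ratios (9.94%), 1 on slide 1 alone (4.92%) and 0 on slide 2 alone, where limma called 1 of all genes and probes and 2 members had an unadjusted p under 0.05. Leaving out 1 heart gave 1 to 5, with 1 without fasted replicate 1, fasted replicate 2, satiated replicate 3 or satiated replicate 4, and 5 without fasted replicate 3. The number that rose was 1 with the slide as a block. Among the assembly factors outside the list, 14 fell, against 9 on slide 1 alone, 0 on slide 2 alone and 11 to 13 without 1 heart, and 1 rose in the slide-block fit and 1 with the replicate block. The difference in change, Cox7a1 minus Cox7a2, was 0.0515 with quantile normalization and ran from -0.0897 to 0.00654 without 1 heart, the last without fasted replicate 4. Of 857 values of 39 named members over up to 22 alternatives, 776 kept sign and side of the threshold, 21 lost the call (Cox11, Cox15 and Sdhd) and 31 gained it (9 genes). The remaining 29, in 11 genes, changed sign, and 0 of them were called. On slide 2 alone these were Sdha (0.0525), Uqcrh (0.0527), Cox6a2 (0.0436), Cox6b1 (0.0476), Cox7a2 (0.0134) and Cox7a2l (0.112). Atp5g3 and Cox4i1 turned on slide 1 alone (-0.108 and -0.0486), with quantile normalization (-0.0311 and -0.0175) and with array weights (-0.205 and -0.0925), as did Cox4i1 with normexp (-0.00212). With the second brightest probe Sdha had 0.0185 and Atp5g2 0.0142. Without 1 heart the range was -0.120 to 0.164 for Atp5g3, -0.0791 to 0.105 for Cox4i1, -0.136 to 0.00656 for Cox6a2, -0.00366 to 0.227 for Cox6b2, -0.140 to 0.0541 for Cox7a2l, -0.0767 to 0.00160 for Cox8b, -0.102 to 0.00751 for Sdha and -0.133 to 0.0167 for Uqcrh. Slides taken alone have 2 hearts a group, and fewer probes were above background on slide 2. Apart from the number of hearts or features, the cause of these moves was not tested.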
